A study of Mus musculus with 32 samples.

Results

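The comparison described here sets 4 striatum libraries from mice given the histone deacetylase inhibitor CI-994 before exploring a chamber (HDACi context) against 4 from mice given the solvent before the same exploration (vehicle context). The libraries were taken by their group labels and are 8 of the 32 in the series, and all genes with enough counts were tested. HDACi context mice received 30 mg/kg CI-994 by intraperitoneal injection in a mixture of dimethyl sulfoxide, Kolliphor and saline, and vehicle context mice received that mixture alone. Both groups were male C57BL/6J mice aged 12 weeks, injected 1 hour before they were put in the conditioning chamber, where no shock was given. Striatum was frozen 1 hour after the exposure, and each library holds polyadenylated RNA from a single striatal hemisphere of a single mouse. The series also holds mice that received 2 foot shocks of 0.2 mA in the chamber (contextual fear conditioning, CFC) and hippocampus libraries of every group. Drug was assigned at random within the study, while all mice of a cage had the same behaviour, so in the comparison of context with CFC mice the cage and the behaviour cannot be told apart. The main comparison asks what an acute dose of the drug did to striatal RNA when exploration was the only experience.

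Histone deacetylases (HDACs) of class I remove acetyl groups from histone tails and act as the catalytic subunits of repressor complexes named after Sin3, NuRD, CoREST and NCoR. CI-994 is a benzamide that blocks class I enzymes, and inhibitors of this kind are known to raise the RNA of some genes and lower that of others within hours. The striatum consists mostly of GABAergic medium spiny neurons, which carry dopamine receptors of the D1 type (direct pathway) or the D2 type (indirect pathway) and use cAMP and the phosphoprotein DARPP-32 to read dopamine. In bulk tissue, fewer cells of a type and less RNA per cell cannot be told apart.

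The 8 libraries held 27634940 to 33635025 counts. Levels are given as CPM (counts scaled to a common library total), and changes as log2 fold changes of HDACi context over vehicle context with their standard error (SE) from edgeR's quasi-likelihood F test, which was fitted on all 16 striatum libraries with TMM scaling. A gene was called when its Benjamini-Hochberg adjusted p over the 18256 tested genes was under 0.05. Markers of medium spiny neurons (18 genes, among them Ppp1r1b) summed to 16400 to 18700 CPM in HDACi context libraries and to 14400 to 17000 CPM in vehicle context libraries, as striatum should. Markers of neocortical excitatory neurons, a tissue that borders the striatum in dissection, set 2 libraries apart. They summed to 141 to 173 CPM in the HDACi context libraries and to 274, 150, 158 and 402 CPM in vehicle context replicates 1 to 4, so vehicle context replicates 1 and 4 stood above the other 6, and of the 10 tested markers none was called. The counts that lead each group below are therefore also given without these 2 vehicle libraries, a choice made after the data were seen. That smaller design also has fewer mice. The labels do not give the strand setting of the counting, so where another gene overlaps one named below (as at Taf5, Suv39h2, Kdm1b, Kat5, Kmt2e, Polr2h, Irf9, Sirt7, Adora1, Plk3, Lamb3, Draxin, Kcnq1ot1, Hyls1 and Zbtb8a) reads of the pair cannot be told apart.

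The drug changed 4524 of 18256 genes (24.8%) in striatum after context. Of these, 1878 rose (10.3% of tested genes) and 2646 fell (14.5%). These shares are the reference for the gene groups below, and several lists lay near or under them. The shares also differed with the mean level of a gene, as described below. The gene lists were not matched for level, and the part of level in their counts was not tested. More than 2-fold changes were made up of 373 rises (2.04%) and 347 falls (1.9%). The 4 HDACi context libraries all lay above the 4 vehicle context libraries in 1647 of the 1878 genes that rose and all below in 2434 of the 2646 that fell, where 13% and 15.6% of all tested genes showed such separation upward and downward. These counts, and that of the Zfp genes, compare TMM-scaled log2 CPM, whereas overlap in a named gene is judged on the CPM printed here. TMM factors were 0.94 to 0.961 in HDACi context libraries and 1.02 to 1.041 in vehicle context libraries. Groups whose printed CPM or summed markers overlap may therefore be separate after TMM scaling. Without vehicle context replicates 1 and 4, 2658 genes were called, 816 higher and 1842 lower, and 2604 of the 4524 calls were among them in the same direction. Within replicates 1 and 2 alone 1520 genes were called (383 higher, 1137 lower), and within replicates 3 and 4 alone 2146 (633 higher, 1513 lower). With the replicate number as a block 5530 genes were called. Scaling to library size alone moved the median log2 fold change of all genes to −0.09, against 0.03 with TMM, and gave 1079 rises and 3969 falls, while offsets for GC content and transcript length gave 2988 rises and 2900 falls, so the share of falls among the calls ran from 58.5% in the main fit to 78.6% and 49.3% in these alternatives.

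**Figure D1:**
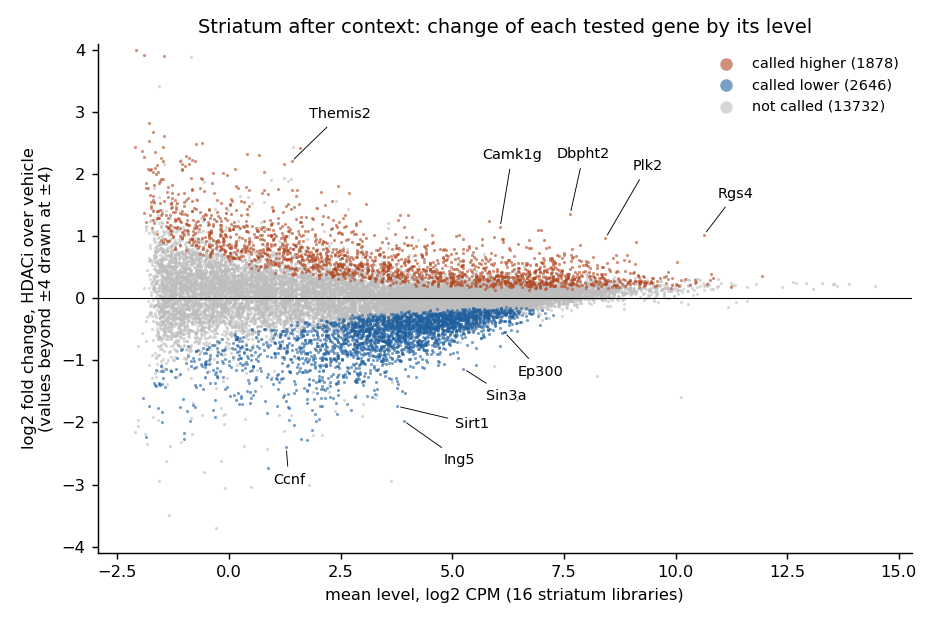
Log2 fold change of HDACi context over vehicle context (vertical axis) against the mean log2 CPM over the 16 striatum libraries (horizontal axis) for each of the 18256 tested genes, with 1878 called higher and 2646 called lower. Falls crowd at middle levels, and rises of abundant genes such as Rgs4 and Plk2 stand alone at the right.

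Rises and falls were distributed differently over kinds of genes. Of 720 tested lincRNA genes (long RNAs between protein coding genes) 179 rose and 27 fell, and of 525 antisense RNA genes 94 rose and 7 fell, whereas of 14678 protein coding genes 1369 rose (9.33%) and 2509 fell (17.1%). Without the 2 vehicle libraries the counts were 83 and 23 for lincRNA genes and 54 and 5 for antisense genes. Among genes of 3 to 6 mean log2 CPM 25% fell and 7.35% rose (1705 falls and 501 rises, against 1211 and 211 without the 2 vehicle libraries). Among the 3354 genes of 6 or more 15.1% rose and 3.31% fell, and none of these falls exceeded 2-fold. These more abundant genes gave 505 rises and 110 falls, against 191 and 56 without the 2 vehicle libraries, but 207 rises and 355 falls with library size alone. Genes that extend over 200 kb or more of chromosome gave 166 rises and 6 falls of 970, against 349 rises and 325 falls of 3900 genes under 5 kb. The protein coding genes that fell had a median span of 20.2 kb and a median transcript GC content of 47.9%, those that rose 38.7 kb and 49.8%, and all tested protein coding genes 25.5 kb and 49.8%. Chromosomes 17 and 13 had the highest shares of falls among the autosomes (17.5% and 18.4%), and the X chromosome had 56 rises and 47 falls of 636 genes. The 200 kb pattern was 255 rises and 7 falls with the GC content and length offsets. It was 56 and 11 with library size alone and 42 and 3 without the 2 vehicle libraries.

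**Figure D2:**
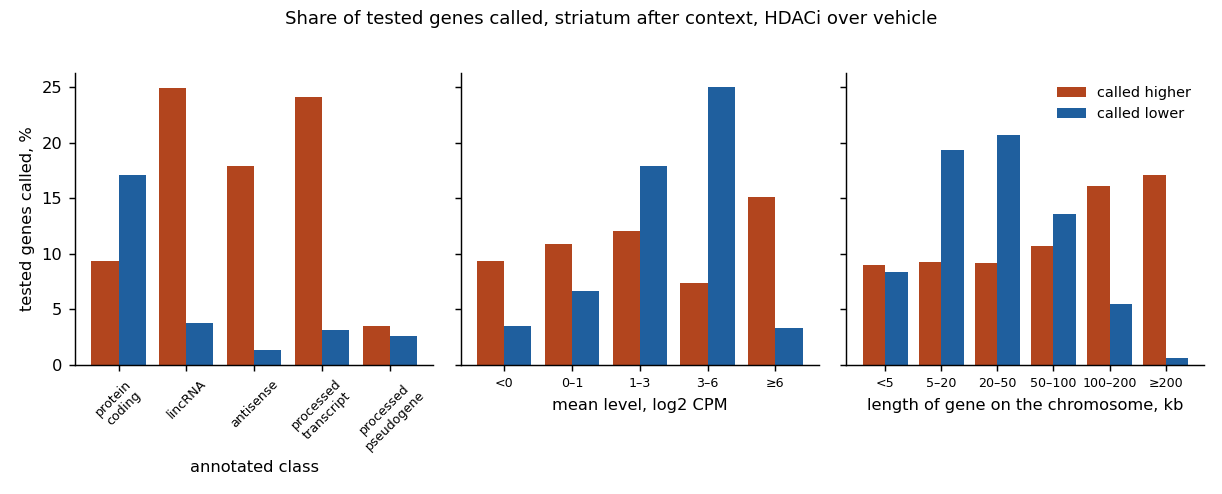
Share of tested genes called higher or lower (vertical axis, %) by annotated class, by mean level in log2 CPM and by gene length on the chromosome in kb. Rises exceed falls in lincRNA, antisense and processed transcript genes and in genes of 100 kb or more, and falls exceed rises between 5 and 100 kb and at 1 to 6 log2 CPM.

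Promoters of 3 genes that fell (Ing5, Sirt1 and Zfp954) and 3 that rose (Themis2, Rgs4 and Plk2) are printed because these genes head the groups described below and show how different the start regions of strongly changed genes are. Each runs from 250 bases before to 50 bases after the gene's start, 5′ to 3′ on the gene's strand, from RefSeq on GRCm38.p6. Capitals mark every match, on either strand, to GGGCGG (the GC box bound by Sp and Kruppel-like factors), CCAAT (bound by NF-Y), TATAAA (the TATA box), TGACGTCA (the cAMP response element), TGACTCA (bound by AP-1), CACGTG (an E-box) or TTCAGCACC (one side of the REST site). Of 27025 promoters of this length in the table, the first listed for each symbol, 35.9% held GGGCGG, 37.9% CCAAT, 14.2% TATAAA and 1.88% TGACGTCA. TGACTCA was in 5.17%, CACGTG in 7.24% and TTCAGCACC in 0.359%. Of the 11452 tested protein coding genes with a promoter there, 62.7% held GGGCGG, 38.4% CCAAT, 7.18% TATAAA and 3.14% TGACGTCA. TGACTCA was in 3.41% of these, CACGTG in 9.73% and TTCAGCACC in 0.445%.
Ing5: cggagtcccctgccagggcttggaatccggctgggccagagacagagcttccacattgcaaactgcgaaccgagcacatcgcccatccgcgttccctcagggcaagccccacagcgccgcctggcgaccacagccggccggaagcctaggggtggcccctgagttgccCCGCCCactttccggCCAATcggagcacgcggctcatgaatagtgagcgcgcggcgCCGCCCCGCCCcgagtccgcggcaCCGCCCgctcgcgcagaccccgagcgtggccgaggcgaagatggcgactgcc
Sirt1: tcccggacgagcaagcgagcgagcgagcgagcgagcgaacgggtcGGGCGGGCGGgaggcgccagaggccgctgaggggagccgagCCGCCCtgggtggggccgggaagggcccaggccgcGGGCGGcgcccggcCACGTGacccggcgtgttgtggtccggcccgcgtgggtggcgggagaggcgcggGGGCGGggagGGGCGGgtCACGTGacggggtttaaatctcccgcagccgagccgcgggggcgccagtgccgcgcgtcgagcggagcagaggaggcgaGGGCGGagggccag
Zfp954: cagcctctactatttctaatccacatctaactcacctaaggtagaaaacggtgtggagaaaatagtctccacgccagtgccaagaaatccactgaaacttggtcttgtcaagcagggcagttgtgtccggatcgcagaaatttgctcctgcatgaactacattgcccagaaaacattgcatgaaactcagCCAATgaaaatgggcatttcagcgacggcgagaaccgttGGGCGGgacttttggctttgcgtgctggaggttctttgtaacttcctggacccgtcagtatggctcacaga
Themis2: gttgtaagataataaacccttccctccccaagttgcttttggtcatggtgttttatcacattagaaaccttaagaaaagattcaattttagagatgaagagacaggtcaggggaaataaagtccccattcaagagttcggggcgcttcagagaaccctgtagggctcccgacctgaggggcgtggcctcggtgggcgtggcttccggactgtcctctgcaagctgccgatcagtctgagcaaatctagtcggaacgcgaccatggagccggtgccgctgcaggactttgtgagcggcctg
Rgs4: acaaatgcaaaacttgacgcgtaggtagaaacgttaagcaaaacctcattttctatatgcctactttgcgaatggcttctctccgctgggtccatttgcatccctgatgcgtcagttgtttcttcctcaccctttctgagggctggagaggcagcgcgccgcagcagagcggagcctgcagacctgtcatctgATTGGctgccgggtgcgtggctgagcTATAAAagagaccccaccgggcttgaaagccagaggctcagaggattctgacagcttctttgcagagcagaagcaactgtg
Plk2: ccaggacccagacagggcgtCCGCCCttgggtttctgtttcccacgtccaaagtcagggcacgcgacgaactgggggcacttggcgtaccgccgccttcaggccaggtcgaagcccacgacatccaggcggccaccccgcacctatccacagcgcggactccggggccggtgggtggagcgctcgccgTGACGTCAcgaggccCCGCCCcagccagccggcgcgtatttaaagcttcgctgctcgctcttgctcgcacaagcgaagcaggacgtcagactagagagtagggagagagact

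The regions are chr1:93803715-93804014 on the plus strand for Ing5, chr10:63338986-63339285 on the minus strand for Sirt1, chr7:7121427-7121726 on the minus strand for Zfp954, chr4:132796315-132796614 on the minus strand for Themis2, chr1:169747593-169747892 on the minus strand for Rgs4 and chr13:110394794-110395093 on the plus strand for Plk2. Sirt1 had the most CpG pairs (47), followed by Ing5 (35) and Plk2 (31), while Themis2, Rgs4 and Zfp954 held 14, 13 and 11. Rgs4 was the only one of the 6 with a TATAAA, Plk2 the only one with a TGACGTCA and Sirt1 the only one with a CACGTG, and Themis2 matched none of the 7 motifs. The table matched 78% of the tested protein coding genes by symbol, too few for a comparison of promoter features between rising and falling genes, so none is reported.

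The strongest falls included regulators of chromatin, transcription and the cell cycle. Ing5 (ENSMUSG00000026283, GRCm38 chr1:93803965-93822101, plus strand), a subunit that ties MOZ and HBO1 acetyltransferases to methylated histone H3, had 6.07, 5.61, 6.53 and 4.64 CPM in HDACi context libraries, against 21.3, 25.1, 24.9 and 25.7 CPM in vehicle context libraries. The groups did not overlap, and the log2 fold change was −1.97 (SE 0.10, edgeR adjusted p = 7.14e-09). Ccnf (ENSMUSG00000072082, chr17:24222198-24251484, minus strand), cyclin F, the substrate receptor of an SCF ubiquitin ligase, had 0.759, 0.796, 0.507 and 0.799 CPM under the drug and 4.09, 3.48, 4.20 and 4.55 CPM in vehicle. Its log2 fold change of −2.4 (SE 0.19, edgeR adjusted p = 3.29e-07) led the falls of genes named by the rule. The 10 falls selected for size among well measured genes also held Dtx2 (a Notch pathway ubiquitin ligase), Nfatc2ip (a SUMO-like cofactor), Taf5 (a TFIID subunit), Zc3hav1l and the zinc finger genes Zfp472, Zfp791, Zfp202 and Rsl1, with log2 fold changes from −2.29 to −1.86. All 10 kept their call in all 21 alternatives.

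Among the most abundant genes the falls were smaller. Hjurp, the chaperone of centromeric histone H3, had 43.7 to 50.2 CPM in HDACi context libraries, against 83.5 to 90.6 CPM in vehicle context libraries (log2 fold change −0.78, SE 0.06, edgeR adjusted p = 4.93e-07). Every HDACi context library was below every vehicle context library. Ep300, the acetyltransferase p300, fell by 0.55 on the log2 scale (SE 0.07, edgeR adjusted p = 3.92e-05). Jade2, Wdr37, Kdm2a, Tfrc (the transferrin receptor), Smarca5 and Tmem170b made up the other 6 selected abundant falls, at −0.56 to −0.44 log2. Tfrc lost its call without the 2 vehicle libraries, and the other 7 kept it.

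The strongest rises were in genes with low levels in vehicle striatum. Themis2 (ENSMUSG00000037731, chr4:132781843-132796387, minus strand), an adaptor of lymphocyte and macrophage signalling, had 4.22, 4.27, 4.56 and 3.90 CPM in HDACi context libraries, against 0.892, 1.37, 0.931 and 0.773 CPM in vehicle context libraries. The log2 fold change was 2.21 (SE 0.18, edgeR adjusted p = 5.88e-07), without overlap. Lamb3, a laminin chain, had 6.90, 6.80, 4.86 and 6.02 CPM under the drug and 2.25, 2.04, 1.80 and 2.02 CPM in vehicle (log2 fold change 1.71, SE 0.18, edgeR adjusted p = 5.09e-06). Every HDACi context library was higher than any vehicle context library. Mapkapk3 (a kinase downstream of p38), Rsad2 (an interferon-inducible antiviral enzyme), Rara (a retinoic acid receptor), Snai3 (a Snail-family repressor) and the chemokine receptor Ccr6 rose by 1.46 to 1.75 log2. Draxin, an axon guidance ligand, was uneven, at 1.09, 5.68, 1.55 and 4.52 CPM in HDACi context libraries, against 0.953, 0.479, 0.866 and 0.773 CPM in vehicle context libraries (log2 fold change 2.16, SE 0.48, edgeR adjusted p = 0.00343). Replicates 2 and 4 of the HDACi context group carried most of its rise. Eps8l1 was close to the threshold (log2 fold change 1.66, SE 0.56, edgeR adjusted p = 0.0393) and lost its call without HDACi context replicate 1 or 2, or without vehicle context replicate 2 or 4.

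Abundant genes that rose included several of neuronal signalling. Rgs4 (ENSMUSG00000038530, chr1:169741477-169747642, minus strand), which speeds the shut-off of Gi and Gq signals, had 2000, 2090, 2430 and 2230 CPM in HDACi context libraries, against 1170, 1150, 1240 and 1100 CPM in vehicle context libraries (log2 fold change 1.02, SE 0.14, edgeR adjusted p = 7.21e-05). The groups were far apart for so abundant an RNA. Plk2 (ENSMUSG00000021701, chr13:110395046-110400844, plus strand), an activity-induced kinase of dendritic spines, had 417, 442, 444 and 499 CPM under the drug and 256, 238, 243 and 259 CPM in vehicle (log2 fold change 0.97, SE 0.08, edgeR adjusted p = 7.07e-07). Camk1g (ENSMUSG00000016179, chr1:193346346-193370298, minus strand), a calmodulin-dependent kinase of growing dendrites, had 108, 87.8, 74.5 and 88.9 CPM under the drug and 41.7, 45.3, 45.4 and 42.8 CPM in vehicle (log2 fold change 1.15, SE 0.13, edgeR adjusted p = 1.07e-05). Both genes were without overlap between the groups. Camk1g was the only 1 called of 14 calcium and calmodulin-dependent kinase genes (7.14%, under the 10.3% of all tested genes). The lincRNA Dbpht2 (1.36 log2), the paraspeckle RNA Neat1 (1.1), Ppp1r3c (a glycogen-targeting phosphatase subunit, 0.96), Cdc40 (a splicing factor, 0.96) and Kcnj2 (the inward rectifier Kir2.1, 0.94) completed the 8 selected abundant rises, and all 8 kept their calls without the 2 vehicle libraries.

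**Figure D3:**
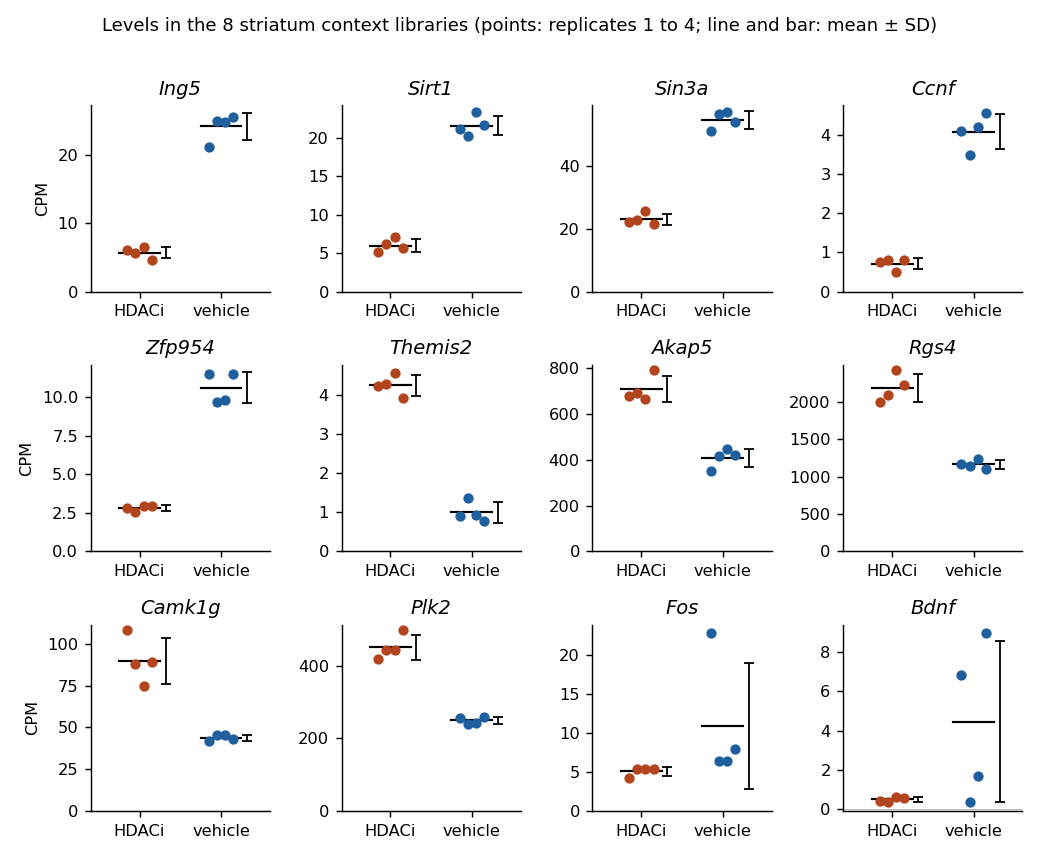
Levels in CPM (vertical axes, each from 0) of 12 genes in the 4 HDACi context and 4 vehicle context libraries, with the group mean and SD. The 10 called genes show no overlap between groups, while 1 vehicle library for Fos and 2 for Bdnf stand far above the rest.

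RNA of the drug's own targets showed no call. Hdac1 averaged 14.5 ± 0.127 CPM in HDACi context libraries and 15.6 ± 1.19 CPM in vehicle context libraries (SD, n = 4 mice each), and after TMM scaling its log2 fold change was 0.01 (SE 0.09, edgeR adjusted p = 0.974). Hdac2, Hdac3 and Hdac8 had log2 fold changes of −0.07, 0.09 and 0.12 with edgeR adjusted p values of 0.651, 0.386 and 0.385. Of the 11 class I, II and IV genes, only Hdac10, a polyamine deacetylase, was called, at −0.53 log2 (edgeR adjusted p = 0.0176), and it lost the call without the 2 vehicle libraries and without HDACi context replicate 3 or 4. Among the 7 sirtuins, the NAD-dependent deacetylases that CI-994 does not target, Sirt1 had 5.12, 6.15, 7.04 and 5.63 CPM in HDACi context libraries, against 21.2, 20.2, 23.3 and 21.7 CPM in vehicle context libraries. Its log2 fold change of −1.74 (SE 0.13, edgeR adjusted p = 2.92e-07) held in all 21 alternatives, and the second sirtuin that fell, Sirt7 (−0.36 log2), was nearer the threshold at 0.0351. The count of 2 sirtuins was the same without the 2 vehicle libraries.

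Subunits of the complexes that carry class I HDACs moved in both directions, with falls the more frequent. Of 41 such subunits 7 rose and 16 fell (39%, median of the list −0.11 log2), and without the 2 vehicle libraries 4 and 10 were called. Their summed level was 2720 to 2910 CPM under the drug and 2750 to 2930 CPM in vehicle, which overlap. Sin3a, the scaffold of the Sin3 complex (ENSMUSG00000042557, chr9:57072040-57128366, plus strand), had 22.2, 22.8, 25.7 and 21.6 CPM in HDACi context libraries, against 51.2, 56.5, 57.4 and 54.0 CPM in vehicle context libraries. No library crossed between groups (log2 fold change −1.13, SE 0.07, edgeR adjusted p = 3.68e-08). Mier3, a partner of HDAC1 and HDAC2, and the CoREST scaffolds Rcor1 and Rcor3 fell by 1.13, 0.69 and 0.75 on the log2 scale. Of 13 Ing, Jade and related acetyltransferase adaptors 7 fell and 1 rose, among them Ing3, Epc1 and Epc2 of the NuA4 acetyltransferase complex at −0.55 to −0.49 log2, and 7 also fell without the 2 vehicle libraries. Of 14 acetyltransferases Ep300, its relative Crebbp (−0.38) and Kat5 (TIP60, −0.35) fell and Ncoa2 rose by 0.19, the last with its call lost in 11 of 21 alternatives, and 3 fell and 0 rose without the 2 vehicle libraries.

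Proteins that bind acetylated histones, remodel nucleosomes or methylate histones followed a like division. Of 33 acetyl-lysine readers 16 fell (48.5%) and 1 rose, with Atad2b, Yeats4, Trim24 and Brd8 at −0.74 to −0.35 log2, and 8 fell and 1 rose without the 2 vehicle libraries. Of 30 remodelling subunits 9 fell and 3 rose (8 and 2 without the 2 vehicle libraries), with Chd1, a remodeller of actively transcribed genes, at −0.90 log2 (SE 0.09, edgeR adjusted p = 2.39e-06). Of 38 histone methyltransferases and demethylases 14 fell and 8 rose, against 10 and 5 without those libraries. Suv39h2, which methylates H3 lysine 9 in heterochromatin, had 1.02, 1.34, 1.55 and 1.94 CPM in HDACi context libraries, against 5.47, 4.18, 5.84 and 5.08 CPM in vehicle context libraries (log2 fold change −1.69, SE 0.18, edgeR adjusted p = 3.88e-06). Kdm1b (LSD2) fell by 0.81 on the log2 scale, and Kmt2e rose by 0.60 (SE 0.07, edgeR adjusted p = 5.11e-06). Among 18 tested histone genes 5 rose and 2 fell (3 and 1 without the 2 vehicle libraries), with linker histone Hist1h1d at 2.44, 2.10, 1.94 and 2.89 CPM in HDACi context libraries, against 0.984, 0.671, 0.674 and 0.684 CPM in vehicle context libraries. Polyadenylated libraries recover clustered histone RNA poorly, so these levels are those of its polyadenylated fraction.

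Subunits of the basal transcription machinery included falls and no rise. Of 54 tested Mediator, RNA polymerase II and TFIID subunits 24 fell (44.4%) and 0 rose, with a list median of −0.24 log2, and 16 fell and 0 rose without the 2 vehicle libraries. With the replicate block or with the GC content and length offsets 1 member was called higher. Taf5, which nucleates TFIID, had 1.42, 1.19, 1.79 and 1.69 CPM in HDACi context libraries, against 6.30, 5.53, 6.71 and 7.05 CPM in vehicle context libraries (log2 fold change −1.95, SE 0.14, edgeR adjusted p = 1.73e-07). Med11 of the Mediator head, the polymerase subunit Polr2h and Taf12 fell by 1.52, 0.77 and 0.67 on the log2 scale. The group's summed level was 1510 to 1600 CPM under the drug and 1740 to 1840 CPM in vehicle, without overlap.

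The Zfp zinc finger genes, most of which encode DNA-binding repressors that recruit KAP1 through a KRAB domain, were the largest falling list. Of 374 genes 342 were tested, and of these 207 fell (60.5%) and 14 rose, with a median of −0.45 log2 against 0.03 for all tested genes. The median level was 3.42 log2 CPM over the 342 tested Zfp genes and 3.52 log2 CPM over all tested genes. More than 2-fold falls numbered 56 of 342, against 347 of all 18256 tested genes (1.9%). No overlap between groups was seen in 200 of the 207, and in 2434 of the 2646 falls among all tested genes. Separation of the groups was thus common to called falls and not particular to Zfp genes. Zfp954 (ENSMUSG00000062116, chr7:7114690-7121488, minus strand) had 2.84, 2.57, 2.92 and 2.95 CPM in HDACi context libraries, against 11.5, 9.71, 9.82 and 11.5 CPM in vehicle context libraries (log2 fold change −1.80, SE 0.11, edgeR adjusted p = 3.62e-08). Zfp111, Zfp868 and Zfp287 fell by 1.48, 1.34 and 1.29 on the log2 scale. By chromosome, 59 of 87 fell on chromosome 7, 32 of 41 on chromosome 17 and 22 of 30 on chromosome 13, where many of these genes lie in clusters, while on chromosome 18 1 fell and 3 rose of 11. Among the 196 members that no other annotated gene overlaps 127 fell (64.8%), and 177 fell and 11 rose without the 2 vehicle libraries. Reads of near-identical relatives may be shared among these genes, so the value of a single member is less certain than the count.

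**Figure D4:**
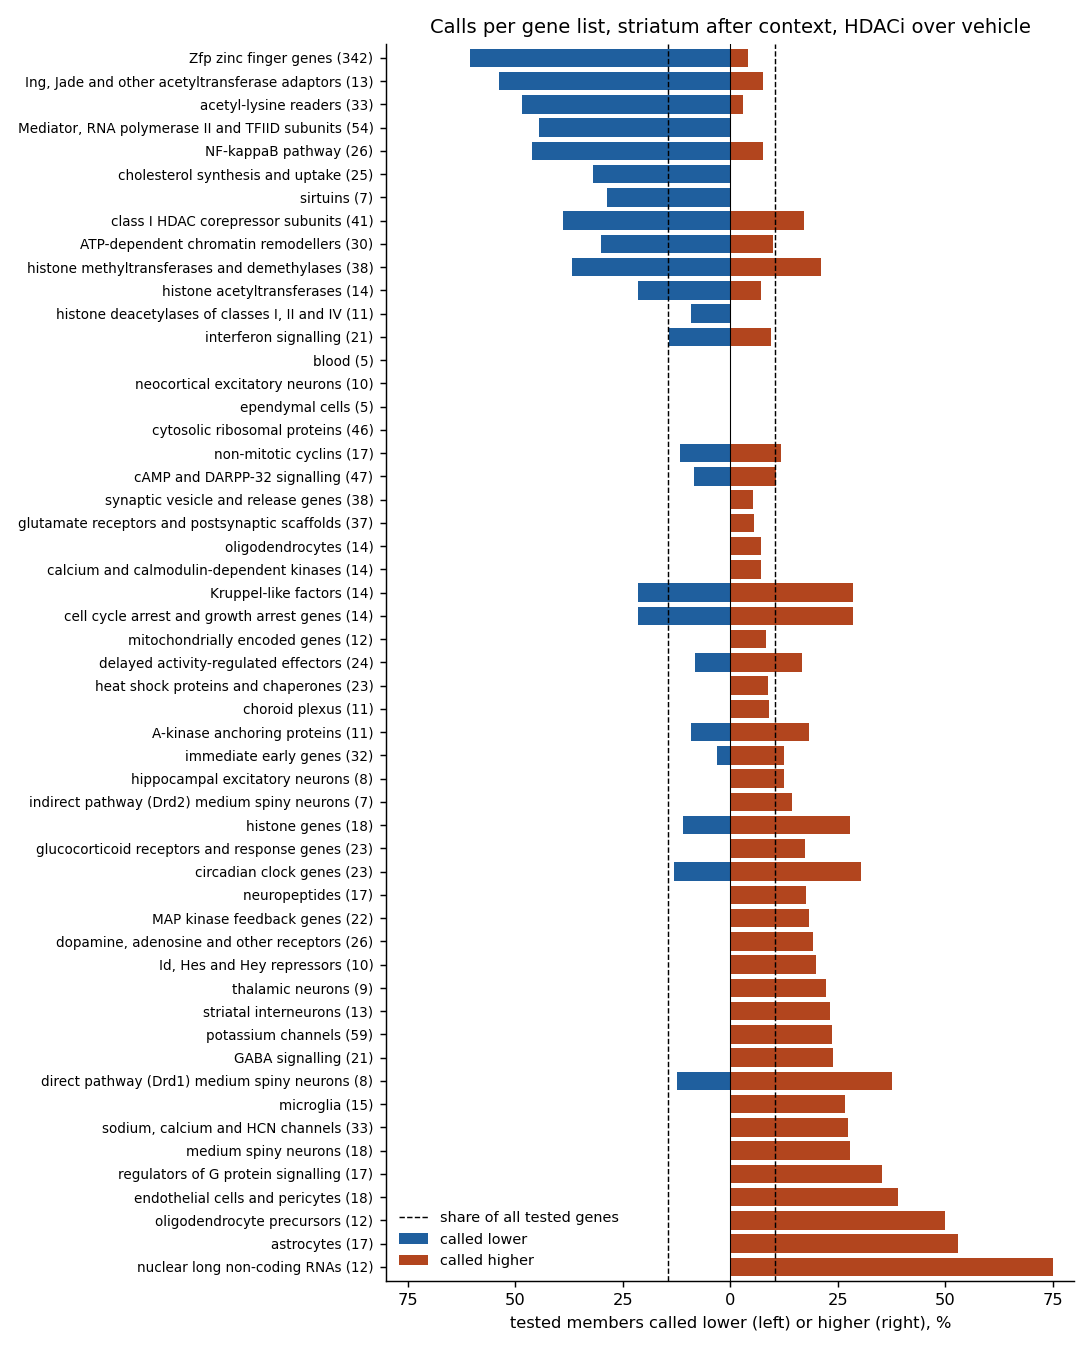
Share of the tested members of each of 53 gene lists (number tested in brackets) called lower (bars to the left) or higher (bars to the right), with dashed lines at the 14.5% and 10.3% of all tested genes called lower and higher. Zfp genes and acetylation, transcription and NF-kappaB lists extend to the left, and nuclear long non-coding RNAs, glial, vascular and channel lists to the right.

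Genes at several steps of the pathway of NF-kappaB, the transcription factor of inflammation that neurons and glia also use, fell. Of 26 pathway genes 12 fell (46.2%) and 2 rose, with a list median of −0.36 log2, and 8 fell and 1 rose without the 2 vehicle libraries. The summed level of the list was 1090 to 1140 CPM in both groups. Malt1 (ENSMUSG00000032688, chr18:65430938-65479067, plus strand), the protease of the CARD-BCL10-MALT1 signalling complex, had 5.25, 5.25, 5.10 and 4.55 CPM in HDACi context libraries, against 13.8, 14.2, 17.8 and 14.3 CPM in vehicle context libraries (log2 fold change −1.46, SE 0.12, edgeR adjusted p = 5.27e-07). Its partner Bcl10 fell by 1.06, the subunit Rel by 1.27 and Tnfaip3, the deubiquitinase A20 that restrains the pathway, by 1.48 on the log2 scale. Interferon signalling showed 3 falls (14.3%) and 2 rises (9.52%) of 21 genes, near the 14.5% and 10.3% of all tested genes. The list median was 0.04 log2, and 4 fell and 1 rose without the 2 vehicle libraries. The transducers Stat2, Irf9 and Ifnar1 fell by 0.59, 0.60 and 0.45 on the log2 scale, and Irf1 rose by 0.68.

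Of 25 genes of cholesterol synthesis and uptake 8 fell (32%) and 0 rose, and 4 fell without the 2 vehicle libraries. Hsd17b7, an enzyme of the sterol pathway, had 8.05, 7.35, 8.91 and 6.49 CPM in HDACi context libraries, against 14.6, 15.4, 17.3 and 19.7 CPM in vehicle context libraries (log2 fold change −1.01, SE 0.14, edgeR adjusted p = 7.81e-05). The groups did not overlap. Lss, another enzyme of the pathway, and Insig1, which holds back sterol-regulated transcription, fell by 0.46 and 0.59 on the log2 scale. With the GC content and length offsets 9 fell and 1 rose.

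Cell cycle and differentiation regulators were split. Among 17 cyclins other than mitotic ones, Ccnf and Ccnj (−1.70 log2, SE 0.11, edgeR adjusted p = 5.6e-08) fell, and Ccnd2 and Ccnl1 rose by 0.64 and 0.25. The CPM of Ccnl1 overlapped between groups, and its call was lost in 11 of 21 alternatives. The 2 rises and 2 falls were 11.8% each of the cyclins, against 10.3% and 14.5% of all tested genes. Of the cyclins 2 fell and 1 rose without the 2 vehicle libraries. Of 14 growth arrest genes Btg1, Btg2 and Cdkn1a, the inhibitor p21, were among the 4 that rose (0.48, 0.72 and 0.80 log2), and Ccng2 and Mdm2 were among the 3 that fell (−0.62 and −0.29). Cdkn1a had 38.4, 26.2, 26.7 and 28.8 CPM in HDACi context libraries, against 21.2, 14.8, 17.7 and 20.8 CPM in vehicle context libraries, and its adjusted p of 0.0268 from edgeR did not hold without HDACi context replicate 1, without vehicle context replicate 2 or 3, or without vehicle context replicates 1 and 4. In that last design 2 growth arrest genes rose and 1 fell, and with library size alone 2 rose and 5 fell. Of 14 Kruppel-like factors 4 rose and 3 fell, and 0 rose and 3 fell without the 2 vehicle libraries (1 and 3 with library size alone). Klf11 had 2.01, 2.32, 2.18 and 1.75 CPM in HDACi context libraries, against 5.94, 7, 6.96 and 7.02 CPM in vehicle context libraries (log2 fold change −1.59, SE 0.11, edgeR adjusted p = 1.44e-07). The Notch effector Heyl rose by 1.00 log2 (SE 0.15, edgeR adjusted p = 0.000103). Clock genes gave 7 rises and 3 falls of 23, with 6 and 2 without the 2 vehicle libraries but 2 and 4 with library size alone. Arntl (BMAL1) and Cry2 rose by 0.77 and 0.68 log2, and Ciart, a repressor of the clock, fell by 1.22. Of 23 glucocorticoid response genes 4 rose (17.4%) and 0 fell, against 1 and 0 without the 2 vehicle libraries and 0 and 1 with library size alone. Of 23 heat shock genes 2 rose (8.7%, under the 10.3% of all tested genes) and 0 fell. Without the 2 vehicle libraries 0 were called. Of 46 cytosolic ribosomal protein genes none was called, although 14 rose with the replicate block.

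Immediate early genes, which neurons switch on within minutes of activity, changed little beyond the spread of the mice. Of 32 such genes 4 rose (12.5%) and 1, Jun, fell (3.12%), against 10.3% and 14.5% of all tested genes. Without the 2 vehicle libraries 3 rose and 0 fell. Ier5 had 47.9, 59.1, 57.8 and 58.1 CPM in HDACi context libraries, against 39.1, 31.1, 30.4 and 37.2 CPM in vehicle context libraries (log2 fold change 0.81, SE 0.13, edgeR adjusted p = 0.000232). Tiparp (0.66 log2), Btg2 and Ccn1 (0.51) were the other rises, and Ccn1 lost its call in 9 of 21 alternatives. Fos had 4.26, 5.32, 5.37 and 5.44 CPM under the drug, against 22.9, 6.39, 6.35 and 7.94 CPM in vehicle. The groups did not overlap, but its log2 fold change of −0.98 (SE 0.50, edgeR adjusted p = 0.172) did not pass the test and was −0.35 without vehicle context replicate 1. The same library held 203 CPM of Arc, while the other 3 vehicle context libraries held 60.6 to 76.0 CPM and the HDACi context libraries 65.2 to 122 CPM. Egr1, Npas4 and Nr4a1 had edgeR adjusted p values of 0.773, 0.419 and 0.778.

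Slower activity-regulated genes included 4 rises (16.7%) and 2 falls (8.33%) of 24, against 10.3% and 14.5% of all tested genes. These counts were 3 and 1 without the 2 vehicle libraries and 2 and 3 with library size alone. Plk2 was the clearest rise. Plk3, its relative, had 2.77, 2.35, 1.61 and 2.12 CPM in HDACi context libraries, against 7.44, 5.56, 3.82 and 4.49 CPM in vehicle context libraries (log2 fold change −1.16, SE 0.24, edgeR adjusted p = 0.00185). Bdnf, the neurotrophin that cortical terminals supply to the striatum, had 0.429, 0.398, 0.626 and 0.584 CPM in HDACi context libraries, against 6.83, 0.351, 1.70 and 8.95 CPM in vehicle context libraries. Its 2 high values were in the vehicle libraries with the most neocortical marker RNA, and the fold change did not pass the test (−3.00 log2, SE 1.40, edgeR adjusted p = 0.132, and −0.89 log2 without those libraries). The part of cortical tissue in this difference was not tested. Homer1, a postsynaptic scaffold gene, had an edgeR adjusted p of 0.283. Feedback regulators of MAP kinases gave 4 rises (18.2%) and no fall among 22 genes, with Dusp10, Spred1, Spred3 and Rasl11b at 0.36 to 0.67 log2. With library size alone 2 rose and 1 fell, and without the 2 vehicle libraries 3 rose and 1 fell. Dusp10, Spred1 and Spred3 were not called in that design (edgeR adjusted p = 0.0534, 0.14 and 0.127). Rasl11b kept its call there and lost it in 9 of 21 alternatives.

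Identity genes of medium spiny neurons rose modestly where they changed. Of 18 markers 5 rose and 0 fell, with a list median of 0.29 log2. Without the 2 vehicle libraries 2 rose, and with library size alone 3. Bcl11b (CTIP2), a transcription factor of these neurons, had 309, 354, 356 and 366 CPM in HDACi context libraries, against 231, 243, 239 and 234 CPM in vehicle context libraries (log2 fold change 0.66, SE 0.11, edgeR adjusted p = 0.000238). In a fit of all 32 libraries it rose by 0.68 log2 in striatum and 0.58 in hippocampus, where vehicle context libraries held 113 to 131 CPM. Its rise was thus not particular to striatum. In hippocampus 2 of the 18 markers rose. Gprin3 rose by 0.68 log2 in striatum. Ppp1r1b, which encodes DARPP-32, had 1530, 1640, 1670 and 1550 CPM under the drug and 1560, 1600, 1460 and 1380 CPM in vehicle, which overlap (edgeR adjusted p = 0.322). Drd1, Drd2 and Adora2a, which mark the direct pathway and the indirect pathway, were not called, with edgeR adjusted p values of 0.495, 0.233 and 0.668. Of 8 markers of direct pathway neurons 3 rose and 1 fell, whereas 0 rose and 1 fell without the 2 vehicle libraries and with library size alone. The transcription factor Isl1, the member that fell, had 8.38, 6.26, 8.29 and 8.21 CPM in HDACi context libraries, against 13.3, 13.1, 14 and 10.9 CPM in vehicle context libraries (log2 fold change −0.60, SE 0.13, edgeR adjusted p = 0.00301, and −0.69 without the 2 vehicle libraries).

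Peptides and receptors of the same neurons were less certain. Pdyn, the dynorphin precursor, had 162, 125, 146 and 161 CPM in HDACi context libraries, against 110, 140, 97.1 and 104 CPM in vehicle context libraries (log2 fold change 0.51, SE 0.15, edgeR adjusted p = 0.0203), and 1 vehicle library lay inside the range of the drug group. Tac1, which encodes substance P, had 199, 209, 228 and 250 CPM under the drug and 191, 173, 187 and 177 CPM in vehicle (log2 fold change 0.40, SE 0.14, edgeR adjusted p = 0.0438). Pdyn lost its call without HDACi context replicate 1 or 4 or vehicle context replicate 1, 3 or 4, and Tac1 lost its call without any 1 of the libraries except HDACi context replicate 1. Penk, the enkephalin precursor of the indirect pathway, was not called (0.32 log2, SE 0.14, edgeR adjusted p = 0.111). Of 26 dopamine, adenosine, muscarinic, opioid, cannabinoid and serotonin receptors 5 rose and 0 fell. Without the 2 vehicle libraries 2 rose, and with library size alone 3. Htr6, a serotonin receptor concentrated in striatum, had 3.8, 4.74, 3.01 and 3.38 CPM in HDACi context libraries, against 2.74, 2.30, 1.80 and 2.26 CPM in vehicle context libraries (log2 fold change 0.82, SE 0.18, edgeR adjusted p = 0.0036). Adora1, the adenosine A1 receptor, rose by 0.36 log2.

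Downstream of these receptors, several regulators of G protein signalling and the anchor Akap5 rose. Of 11 tested A-kinase anchoring proteins 2 rose (18.2%) and 1 fell (9.09%). Of 17 regulators of G protein signalling 6 rose (35.3%) and 0 fell, and 3 rose without the 2 vehicle libraries and 4 with library size alone. Beside Rgs4, Rgs8 had 469, 524, 506 and 527 CPM in HDACi context libraries, against 332, 377, 326 and 311 CPM in vehicle context libraries (log2 fold change 0.70, SE 0.10, edgeR adjusted p = 7.87e-05), and Rgs16 rose by 1.34 log2. Akap5, the anchor of protein kinase A and calcineurin at the postsynaptic density (ENSMUSG00000021057, chr12:76324891-76334153, plus strand), had 681, 694, 665 and 792 CPM in HDACi context libraries, against 352, 416, 448 and 419 CPM in vehicle context libraries. The groups did not overlap (log2 fold change 0.91, SE 0.12, edgeR adjusted p = 3.35e-05, and 0.82 without the 2 vehicle libraries). Of 47 cAMP and DARPP-32 pathway genes 5 rose (10.6%) and 4 fell (8.51%), against 10.3% and 14.5% of all tested genes. The falls were in the phosphodiesterases Pde7a and Pde4d, the CREB coactivator Crtc2 and the CREB-like Crebl2 (−0.52 to −0.22 log2). In the design without the 2 vehicle libraries 4 fell and 0 rose, and with library size alone 5 fell and 1 rose.

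Ion channels gave rises and no called fall, except for 1 fall in each list with library size alone. Of 59 potassium channel genes 14 rose (23.7%), and of 33 sodium, calcium and HCN channel genes 9 rose (27.3%). These counts were 7 and 1 without the 2 vehicle libraries and 9 and 3 with library size alone. Kcng1, a modifier subunit of Kv2 channels, had 49.1 to 56.0 CPM in HDACi context libraries, against 27.8 to 34.2 CPM in vehicle context libraries (log2 fold change 0.85, SE 0.08, edgeR adjusted p = 1.22e-06). Kcnn3, the calcium-activated channel SK3, had 138, 162, 146 and 161 CPM under the drug, against 93.2, 106, 108 and 89.9 CPM in vehicle (log2 fold change 0.73, SE 0.12, edgeR adjusted p = 0.000215). Neither gene overlapped between groups. Kcna5 rose by 0.80 and the embryonic sodium channel gene Scn3a by 0.55 log2. Synaptic genes moved less, with 5 rises of 21 GABA signalling genes, 2 of 37 glutamate receptor and scaffold genes and 2 of 38 vesicle genes, and no fall in the 3 lists. The glutamate and vesicle shares (5.41% and 5.26%) were under the 10.3% of all tested genes. Gad1 and Gad2, which make GABA, rose by 0.28 and 0.36 log2 in the main fit (edgeR adjusted p = 0.0116 and 0.00452). Without the 2 vehicle libraries neither was called and 0 GABA, 0 glutamate and 1 vesicle gene rose. With library size alone 1, 0 and 0 rose, whereas with the replicate block 8, 9 and 4 rose.

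Most long RNAs kept in the nucleus rose. Of 12 such RNAs 9 rose (75%) and 0 fell, and 4 rose without the 2 vehicle libraries and 5 with library size alone. Neat1 (ENSMUSG00000092274, chr19:5824708-5845478, minus strand), the backbone of paraspeckles, had 186, 198, 149 and 151 CPM in HDACi context libraries, against 89.4, 88.5, 97.7 and 68.4 CPM in vehicle context libraries (log2 fold change 1.1, SE 0.17, edgeR adjusted p = 0.000204). All 4 drug libraries were above all 4 vehicle libraries. Mirg and Snhg14, host transcripts of small RNAs in imprinted regions, rose by 0.72 and 0.38 log2, and Kcnq1ot1, an imprinted antisense RNA, by 0.66. Kcnq1ot1 lost its call with the GC content and length offsets (0.20 log2 at its lowest).

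Glial and vascular markers that changed all rose. Of 12 oligodendrocyte precursor markers 6 rose (50%), of 17 astrocyte markers 9 (52.9%), of 18 endothelial and pericyte markers 7 (38.9%) and of 15 microglial markers 4 (26.7%), while of 14 markers of mature oligodendrocytes 1 did. Without the 2 vehicle libraries these counts were 4, 3, 4, 1 and 0, and with library size alone 5, 3, 4, 2 and 1. Pdgfra, the growth factor receptor that defines precursors, had 88.5, 73.5, 84.2 and 82.7 CPM in HDACi context libraries, against 55.4, 55.2, 64.9 and 60.2 CPM in vehicle context libraries (log2 fold change 0.59, SE 0.07, edgeR adjusted p = 2.12e-05). Olig2 rose by 0.83 log2, the astrocyte factor Sox9 by 0.98 and F3 (tissue factor, an astrocyte gene in brain) by 0.86. Pdgfrb, a pericyte receptor, had 28.9, 42.3, 31.0 and 30.9 CPM in HDACi context libraries, against 24.6, 23.2, 18.7 and 17.6 CPM in vehicle context libraries (log2 fold change 0.78, SE 0.14, edgeR adjusted p = 0.000856). Summed astrocyte markers were 6220 to 7120 CPM in the drug group and 5850 to 6450 CPM in the vehicle group, which overlap, whereas summed precursor markers were 935 to 1050 CPM and 769 to 890 CPM, which do not. Markers of thalamus, choroid plexus and ependyma, which can enter a striatal dissection, summed to 54.6 to 78.1, 251 to 303 and 18.4 to 37.5 CPM in the drug group and to 46.8 to 51.0, 247 to 345 and 10.5 to 28.3 CPM in the vehicle group. Their part in the glial rises was not tested.

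The drug effect after context was next set against the effect after CFC in striatum, which rests on other mice. No gene differed at an adjusted p under 0.05 by edgeR, with 380 of 18256 genes (2.08%) under an unadjusted p of 0.05, and the DESeq2 Wald test also gave 0, with 415 under that level. Ing5 had a log2 fold change of −1.97 after context and −1.99 after CFC, a difference of 0.02 (SE 0.14). Themis2 had 2.21 and 2.33, Rgs4 1.02 and 0.94, and Sirt1 −1.74 and −1.60. Other printed genes differed more, such as Hist1h1d at 1.75 and 0.91 (difference 0.83, SE 0.38) and Fos at −0.98 and 0.04 (difference −1.01, SE 0.69). The median SE of such a difference was 0.195 log2, so 0 calls do not show that the effects were equal. Summed medium spiny markers ran from 11600 to 18300 CPM in HDACi CFC libraries. Without the CFC libraries low in these markers edgeR also gave 0 calls, with 629 genes under an unadjusted p of 0.05.

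Between regions the drug effect after context differed in 119 of 19198 genes (0.62%), in a fit of all 32 libraries. The labels do not say whether both regions come from the same mice. The fit has no term for the mouse and treats all libraries as independent. The difference of striatum over hippocampus was positive in 64 (0.333%) and negative in 55 (0.286%), and was over 2-fold in 11 (0.0573%) and 6 (0.0313%). By other fits 197 genes differed with the replicate block, and 57 (12 positive, 45 negative) differed without the 2 vehicle libraries. Of the 119 genes 21 were called higher and 21 lower in striatum alone, 37 were called in hippocampus alone, 23 were called in the same direction in both regions and 17 in opposite directions. In that fit Akap5 rose by 0.92 log2 in striatum and had a log2 fold change of 0.13 in hippocampus (difference 0.79, SE 0.15, edgeR adjusted p = 0.00561). Its difference without the 2 vehicle libraries was 0.61 and no longer called (edgeR adjusted p = 0.133). Lamb3, Mapkapk3 and Cdc14a, a mitotic phosphatase, rose in striatum by 1.73, 1.59 and 0.98 log2 with hippocampal log2 fold changes of 0.46, 0.43 and −0.25. Zc3h12c, a ribonuclease of the regnase family, rose in striatum by 0.65 log2 and fell in hippocampus by 0.56. Zbtb8a and Pard6b, a cell polarity gene, had striatal log2 fold changes of −0.12 and −0.14, which were not called, and fell in hippocampus by 1.56 and 1.40. The differences of Lamb3 and Pard6b were not called without the 2 vehicle libraries (edgeR adjusted p = 0.0583 and 0.0829).

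Other genes responded less, or downward, in striatum. Ahr, the receptor for dioxin and related ligands, had 2.31, 2.53, 2.68 and 2.89 CPM in HDACi context libraries of striatum, against 7.07, 7.92, 7.16 and 9.22 CPM in vehicle context libraries. In the 32-library fit the striatal log2 fold change was −1.46 and the hippocampal one −0.11 (difference −1.34, SE 0.22, edgeR adjusted p = 0.00157). Jun, a subunit of AP-1, had 6.54, 9.77, 6.20 and 7.59 CPM in HDACi context libraries of striatum, against 13.4, 12.1, 11.1 and 11 CPM in vehicle context libraries, a fall near the threshold (−0.55 log2, SE 0.19, edgeR adjusted p = 0.0452) that was not called without the 2 vehicle libraries (edgeR adjusted p = 0.185) and in 10 of 21 alternatives in all. In hippocampus Jun rose by 0.74 log2, and the difference between regions was −1.27 (SE 0.23, edgeR adjusted p = 0.00431). Hyls1, a centriole gene, and Ccdc71l had negative differences of −1.26 and −0.99 log2. Without the 2 vehicle libraries the differences of Ahr, Jun, Hyls1 and Ccdc71l were still called. Of the Zfp genes 207 fell in striatum and 208 in hippocampus, and 5 differed between regions.

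**Figure D5:**
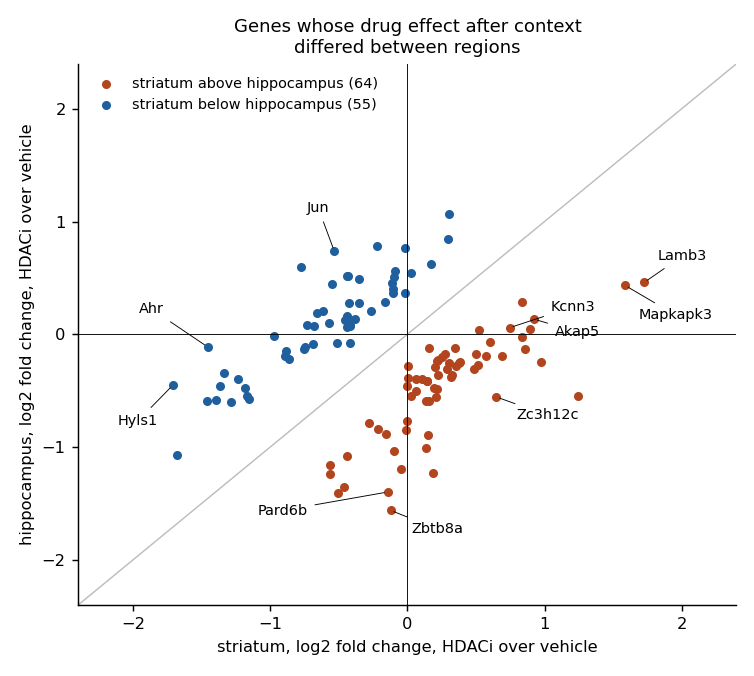
Log2 fold change of HDACi over vehicle after context in striatum (horizontal axis) and hippocampus (vertical axis) for the 119 genes whose drug effect differed between regions, with 64 positive and 55 negative differences of striatum over hippocampus. The grey line marks equal effects. Zc3h12c and Jun lie in quadrants of opposite sign, and the genes were chosen for this difference.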

How the data were processed

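Counts per gene were deposited by the authors as a matrix of whole numbers for 32 libraries of hippocampus and striatum. Per the labels' protocols, libraries were made with a stranded poly(A) kit and sequenced as paired reads. Per the submitters' processing notes the tools were STAR 2.6, bcl2fastq 2.20.0 and DESeq2, with no role stated, and the build was mm10. How reads were counted, and whether strand was used, the sources used here do not give. Of 54146 gene identifiers 54079 matched GENCODE M21, which gave symbols and positions.

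The 8 libraries compared held 27634940 to 33635025 counts, and no pair of libraries within a group agreed within sampling noise (chi-square per degree of freedom 5.66 to 42.4). Genes were filtered with filterByExpr and fitted with edgeR 4.0.16 (R 4.3.3, limma 3.58.1; quasi-likelihood F test, TMM, Benjamini-Hochberg, threshold 0.05) on 16 striatum libraries with 4 group means. The difference from CFC is a contrast in that fit, and the difference from hippocampus one in a fit of 32 libraries and 8 groups. CPM values use library totals, while fold changes use TMM. Within a region each mouse is 1 replicate. Whether both regions come from the same mice is not given, and the fit of 32 libraries has no mouse term. In simulated data 200 of 18256 genes were changed, drawn 3 times for the context comparison from genes at 1 or more mean log2 CPM. Of these 4 to 16% were called at 1.25-fold, 54 to 66% at 1.5-fold, 92 to 98% at 2-fold and 100% at 3-fold. False calls were 1.54 to 4.23% of calls. The data gave 4524 calls, and the simulation held no replicate or dissection differences. These rates therefore need not hold for the data.

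For the replicate block the replicate numbers were taken to pair libraries. The main fits hold no such term, so their SEs and p values treat the libraries as unpaired. Same-numbered deviations from the group means correlated at 0.242, 0.487, 0.59 and 0.639 over 10164 genes. Correlations with other numbers reached 0.302 for replicate 1 and 0.599 for replicate 2, above their own, and 5 of 8 libraries correlated best with their own number. The labels do not say what the number marks.

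Alternatives were DESeq2 1.42.0, other scalings, no filter, the replicate block, GC content and length offsets, subsets of libraries and leaving out each library. Members and gene lists were chosen with earlier results of these data known. Genes were named by rule: fixed genes, up to 4 called members of each list with the smallest adjusted p, the 10 called genes of largest change in each direction at 1 or more mean log2 CPM, the 8 at 6 or more, both without overlap, and the 5 largest regional differences in each direction at 1 or more mean log2 CPM. Clone and predicted-gene symbols were left out of the 10, the 8 and the 5. Not every gene the rule allows is printed, and some are not reported here.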

Additional observations from a re-analysis of the deposited data

Results flagged for a closer look

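In 326 groups of 4 libraries behind the printed values, 21 had 1 library farther from the other 3 than Dixon's 95% critical value allows, where chance flags about 1 in 20 groups. Among HDACi context libraries, replicate 1 was low for Fos (4.26 CPM, others 5.32 to 5.44), Chd1 (14.9 CPM, others 18.0 to 18.6), Zc3hav1l (1.55 CPM, others 2.24 to 2.37) and Ier5 (47.9 CPM, others 57.8 to 59.1). Replicate 2 was high for Pdgfrb (42.3 CPM, others 28.9 to 31.0), Ep300 (65.2 CPM, others 52.9 to 54.7) and summed ependymal markers (37.5 CPM, others 18.4 to 21.4), and low for Isl1 (6.26 CPM, others 8.21 to 8.38). Replicate 3 was low for Ccnf (0.507 CPM, others 0.759 to 0.799), and replicate 4 was low for Med11 (0.922 CPM, others 1.39 to 1.45) and Hdac8 (12.2 CPM, others 14.5 to 14.7).

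Among vehicle context libraries, replicate 1 was high for Fos (22.9 CPM, others 6.35 to 7.94), Arc (203 CPM, others 60.6 to 76.0) and Hist1h1d (0.984 CPM, others 0.671 to 0.684), and low for Klf11 (5.94 CPM, others 6.96 to 7.02) and Snhg14 (174 CPM, others 229 to 232). Replicate 3 was high for Rel (9.11 CPM, others 7.84 to 7.97), Malt1 (17.8 CPM, others 13.8 to 14.3), Hdac1 (17.4 CPM, others 14.9 to 15.1) and summed choroid plexus markers (345 CPM, others 247 to 258). Replicate 4 was low for Arntl (53.0 CPM, others 65.8 to 67.0).

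The drug effect after context differed between striatum and hippocampus, by edgeR's test of the difference itself, in 15 printed genes. The log2 difference of striatum over hippocampus was 1.44 for Zbtb8a, 1.27 for Lamb3, 1.26 for Pard6b, 1.22 for Cdc14a, 1.2 for Zc3h12c, 1.16 for Mapkapk3, 0.79 for Akap5 and 0.69 for Kcnn3. It was −1.34 for Ahr, −1.27 for Jun, −1.26 for Hyls1, −0.99 for Ccdc71l, −0.88 for Tnfaip3, −0.62 for Polr2h and −0.61 for Ccnj. Without vehicle context replicates 1 and 4 the differences of Lamb3, Pard6b, Akap5, Kcnn3, Tnfaip3, Polr2h and Ccnj were not called (edgeR adjusted p from 0.0531 to 0.466). The call was lost in 12 of 20 alternatives for Kcnn3, 10 for Pard6b, 6 each for Polr2h and Ccnj and 4 for Tnfaip3.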

How the results depend on the processing

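Of 130 printed genes called in the main comparison, 80 kept the call under all 21 alternatives, 16 lost it without vehicle context replicates 1 and 4 and 0 lost it with the replicate block. Leaving out each library gave 3714 to 4040 calls, 1336 to 1647 higher and 2257 to 2675 lower. Within replicates 1 and 2 there were 1520 calls (383 higher, 1137 lower), within replicates 3 and 4 there were 2146 (633 and 1513), and without vehicle context replicates 1 and 4 there were 2658 (816 higher); these designs have fewer mice. Library size alone gave 1079 rises, GC content and length offsets 2988, and these with the replicate block 3096; the causes were not tested. The replicate block gave 5530 calls. The difference between context and CFC stayed at 0 calls in every alternative run.

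The 119 regional differences (64 positive, 55 negative) depended most on the processing, and the cause was not tested. The replicate block gave 197 (106 and 91), a term for the replicate sets 200 (109 and 91), the DESeq2 Wald test 198 (123 negative), GC content and length offsets 268 (104 and 164), these with the replicate block 323 (121 and 202), and no filter 73 (26 positive). DESeq2 size factors gave 41 positive and library size alone 86 negative differences. Replicates 1 and 2 gave 0 (0 and 0) and replicates 3 and 4 gave 4 (0 and 4). Without the CFC libraries low in medium spiny markers there were 230 (177 negative), and without vehicle context replicates 1 and 4 there were 57 (12 positive). Leaving out each library gave 86 to 142, with 24 to 55 positive and 45 to 115 negative. The positive count was lowest without HDACi context replicate 4 or vehicle context replicate 4 (24 each), 26 without HDACi context replicate 2 or 3, 37 without HDACi context replicate 1 and 41 without vehicle context replicate 3. The negative count was 105, 86, 115 and 91 without HDACi context replicates 1 to 4 and 88 without vehicle context replicate 4.

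Signs turned only in genes not called in striatum. Hdac1 was −0.11 log2 with library size alone, 0.00 with the DESeq2 Wald test and with only the 8 libraries, −0.01 with no filter, −0.08 within replicates 3 and 4, −0.02 without the low CFC libraries, −0.05 without vehicle context replicates 1 and 4, and −0.05 to 0.06 over the fits that left out each library, with −0.05 without vehicle context replicate 1 or 2 and −0.01 without replicate 4. Hdac3 was −0.02 with library size alone, and Hdac2 was 0.04 with GC content and length offsets, with or without the replicate block, and −0.14 to 0.00 over the fits that left out each library, the last without HDACi context replicate 2. Egr1 was 0.00 with library size alone, −0.09 within replicates 1 and 2 and −0.02 (without HDACi context replicate 2) to 0.26 when each library was left out. Arc was 0.08 with the replicate block, 0.38 within replicates 3 and 4, 0.00 with GC content and length offsets, 0.14 with these and the block, 0.46 without vehicle context replicates 1 and 4 and −0.32 to 0.41 when each library was left out, the last without vehicle context replicate 1. Nr4a1 was 0.24 within replicates 3 and 4, 0.05 with offsets and block, 0.09 without vehicle context replicates 1 and 4, and −0.35 to 0.19 when each library was left out, the last without vehicle context replicate 1. Pard6b was 0.01 without vehicle context replicates 1 and 4.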
